A study of Mus musculus with 8 samples.

Results

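The probes described here are 584 of the 42995 probes in the deposited table of log2 values. They stood far higher in mouse aorta than both in liver and in cultured aortic smooth muscle cells, where not all of them were low. They were chosen by the measured values themselves: the log2 value in aorta had to exceed that in liver by 3 or more, and the mean of wild-type cells with empty adenovirus by 3 or more. RNA was measured on one-colour Cy3 arrays made to detect long non-coding and messenger RNAs of the mouse. Freshly isolated wild-type aorta gave 1 array. Wild-type aortic smooth muscle cells with a Myocd adenovirus, Srf knockout cells with an empty adenovirus and wild-type cells with the empty adenovirus gave 2 arrays each. Freshly isolated wild-type liver gave 1 array. All 6 cultures were at passage 3, in DMEM/F12 with 20% serum for upkeep and 10% in the experiment, and were harvested 3 days after virus at a multiplicity of infection of 100. How Srf was deleted, the strain and the age of the animals are not given in the labels. The labels also leave unstated whether the 2 arrays of a group were independent cultures, so each p-value rests on a spread between arrays that may be technical.

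Smooth muscle cells of the vessel wall are contractile, and in culture they are known to lose much of that state and to divide and migrate instead. The product of Srf, serum response factor, acts on cytoskeletal and contractile genes through CArG elements in their DNA. Myocd encodes myocardin, a coactivator of serum response factor in smooth and cardiac muscle that is known to raise contractile genes in cultured cells. The aorta array also held RNA of endothelial, adventitial, fat, nerve and blood cells, and in such a bulk sample fewer cells of a type and less RNA per cell cannot be told apart. None of the 584 probes carries a gene name. The files name genes, through RefSeq accessions, for 15 probes of the array, and none of the 15 was among the 584. The markers of smooth muscle and of the other cell types could therefore not be looked up, the labels of tissue, Srf and Myocd were not checked against any gene, and the part of other cell types in each result was not tested.

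Processed intensity at the 75th percentile of an array was 364 in aorta, 452 to 498 on the 6 cultured arrays and 165 in liver. Well above background were 68.9% of probes in aorta, 68.2% to 74.7% in the cultures and 62.2% in liver. Levels are given in log2 units relative to the 75th percentile of the same array. The aorta, Myocd and liver arrays lay on slide 2 and the knockout and wild-type arrays on slide 1. Slide and the Myocd virus cannot be told apart, whereas the knockout contrast lies within 1 slide. The distance to aorta runs between slides for both knockout and wild-type cells.

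The 584 probes had a median level of 2.44 in aorta. It was -2.29 and -2.36 on the 2 Myocd arrays, -1.50 and -1.61 on the knockout arrays, -2.88 and -2.87 on the wild-type arrays, and -2.32 in liver. The knockout medians were the highest among the cultures and the wild-type medians the lowest, and the 3 groups did not overlap in this median. On the aorta array 582 of the probes were well above background, and the other 2 had no usable spot there. The number was 518 and 511 on the Myocd arrays, 555 and 571 on the knockout arrays, 528 and 499 on the wild-type arrays, and 401 in liver. These counts are set in part by the deposited table, which holds only probes well above background on at least 4 of the 8 arrays. The median of all probes in the table lay between -1.51 and -1.20 on every array. Among the cultures it followed the same order without overlap, over a narrower range. It was -1.42 and -1.40 on the knockout arrays, -1.47 and -1.45 on the Myocd arrays, and -1.49 and -1.51 on the wild-type arrays. The order is thus not particular to the 584, and their choice also favoured low wild-type levels.

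**Figure D1:**
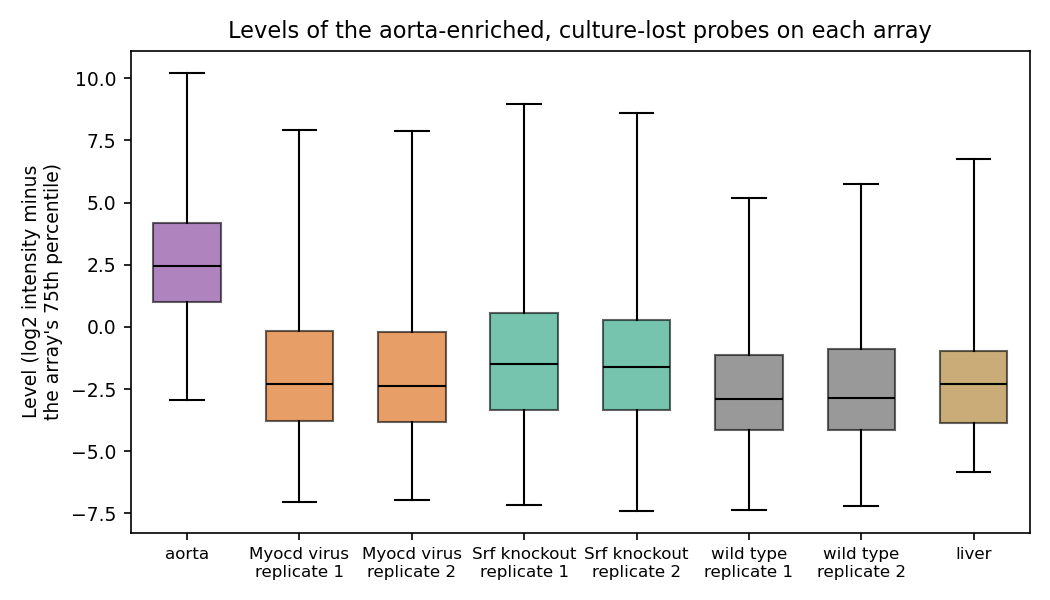
Levels of the 584 aorta-enriched, culture-lost probes on each array, as log2 intensity minus the array's 75th percentile. Boxes span the quartiles with the median as a line, and whiskers reach the lowest and highest probe. The knockout boxes have medians of -1.50 and -1.61, above those of the wild-type arrays at -2.88 and -2.87, and all cultures lie below the aorta median of 2.44, a distance that the choice of probes fixes.

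Close to the limits of the choice, ASMM10P007210 stood 3.0011 above wild-type cells in the deposited log2 table and was taken, while ASMM10P046185 stood 2.9986 above and was not. ASMM10P034870 stood 3.02 above liver and was taken, while ASMM10P000189 stood 2.98 above and was not. Because of that limit on detection, a transcript seen in aorta and on fewer than 3 other arrays could not be chosen. Applied to the scaled intensities of all 60930 probes, the same rule took 819 probes, of which 493 were among the 584 and 294 lay outside the table. Of these 294, 168 were well above background on the aorta array alone, and 68 were so on both arrays of some cultured group. Transcripts seen in aorta alone are thus missing from the 584.

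Many of these probes stood higher in Srf knockout cells. In knockout cells 304 of the 584 were called higher than in wild-type cells (limma, adjusted p under 0.05), which is 52.1%, where 12.2% of all 44081 tested probes were called higher. Lower levels were called for 49 of the 584 (8.39%), where 8.40% of all tested probes were called lower. The median change of the 584 was 0.89 on the log2 scale, with quartiles of 0.11 and 2.23, against a median of 0.07 over all tested probes. The median over all probes depended on the scaling and was -0.03 with quantile normalization, where the median of the 584 was 0.73. Changes of 4-fold or more were measured for 162 probes upwards and 14 downwards, next to 1179 and 332 of all 44081 tested probes. Relative to the wild-type mean, 454 probes were higher on knockout replicate 1 and 459 on replicate 2. By the knockout mean 459 of the 584 were higher, next to 24610 of the 44081 tested probes. Without knockout replicate 1 the median change was 0.87, and without replicate 2 it was 0.93. Fewer of the 584 were then called in either direction. The calls over all tested probes in these fits are not given here, so the drop cannot be set against theirs. The lone knockout array was then assumed to vary like the other groups. The groups did not vary alike. Over all tested probes the median absolute difference between replicates was 0.29 log2 units in wild-type cells, 0.15 in the knockout and 0.15 with Myocd.

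The wild-type arrays took part in choosing the probes, and a wild-type value that was low by measurement error would raise the change. When wild-type replicate 1 alone chose the probes and replicate 2 alone served as the baseline, 596 probes were taken and their median change in the knockout was 0.90. In the reverse setting 586 probes were taken, with a median change of 0.82. The filter on dim probes also bears on the counts. Of the 584, 579 were tested, 443 through all 3 cultured groups, 50 through the knockout arrays only, 14 through the Myocd arrays only and 1 through the wild-type arrays only. A probe that passed through 1 treated group only had to differ. Of the 442 probes well above background on all 6 cultured arrays, 225 were called higher in the knockout and 41 lower, and with Myocd 144 were called higher and 47 lower. These are 50.9%, 9.28%, 32.6% and 10.6% of the 442, next to 11.0377%, 8.90%, 7.34% and 7.22% of all 38151 tested probes that passed the same stricter filter.

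Of the probes measured in both groups, ASMM10P049587 had the largest called rise in the knockout. Its level was 7.83 in aorta, 6.40 and 6.16 in knockout cells, and -1.80 and -0.69 in wild-type cells, with -0.75 in liver. The knockout arrays lay somewhat below aorta and far above both wild-type arrays, without overlap. The log2 change was 7.53 (SE 0.35, limma adjusted p = 0.00016), or 83.0% of the distance from wild-type cells to aorta. ASMM10P024102 stood at 2.27 in aorta, 5.20 and 5.34 in knockout cells, -1.94 and -1.93 in wild-type cells and -2.36 in liver. Both knockout arrays were above aorta here. The change was 7.20 (SE 0.26, limma adjusted p = 9.45e-05), or 171% of the distance to aorta. ASMM10P042400 did not stand well above background in wild-type cells, on either array, so its level there is a bound. It stood at 2.46 in aorta, 2.84 and 2.75 in knockout cells and -5.58 and -5.63 in wild-type cells. Its knockout level was at least 221-fold higher than in wild-type cells (limma adjusted p = 4e-05), and both knockout arrays stood slightly above aorta.

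Among the falls, ASMM10P005241 had the largest. It stood at 8.57 in aorta, -1.82 and -2.24 in knockout cells, 2.93 and 2.77 in wild-type cells and -1.32 in liver. In the knockout it lay further from aorta and below the liver level, with a change of -4.88 (SE 0.19, limma adjusted p = 0.000104). ASMM10P041758 stood at 2.75 in aorta, -5.99 and -4.84 in knockout cells, -2.28 and -1.91 in wild-type cells and -1.21 in liver. Its change was -3.31 (SE 0.38, limma adjusted p = 0.00289), and as it was well above background on 1 of the 2 knockout arrays, the size is not exact. With normexp background correction this change was -1.30.

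With the Myocd virus fewer of these probes rose. Of the 584, 188 were called higher than with empty virus (limma, adjusted p under 0.05), which is 32.2%, where 7.99% of all tested probes were called higher. Lower levels were called for 62 (10.6%), where 7.20% of all tested probes were called lower. The median change was 0.30 on the log2 scale, with quartiles of -0.27 and 1.30, against -0.02 over all tested probes. Rises of 4-fold or more were measured for 98 probes and falls of that size for 5, next to 857 and 202 of all 44081 tested probes. On Myocd replicate 1, 376 probes were above the wild-type mean, and on replicate 2, 360. By the Myocd mean 370 of the 584 were above it, next to 21114 of the 44081 tested probes. Without Myocd replicate 1 the median change was 0.26, and without replicate 2 it was 0.35. Fewer of the 584 were then called in either direction. The number of calls depended on which arrays entered the fit, also on the knockout arrays, which leave the changes as they are. Fewer probes were called in either direction without 1 knockout array too. The calls over all tested probes in these fits are not given here. With wild-type replicate 1 alone as chooser and replicate 2 as baseline the median change was 0.32, and 0.32 in the reverse setting.

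ASMM10P043651 had the largest rise with Myocd among probes measured in both groups. It stood at 4.54 in aorta, 4.27 and 4.20 with Myocd, -4.61 and -3.68 with empty virus and -1.54 in liver. The Myocd arrays were just below aorta and did not overlap the wild-type arrays. The change was 8.38 (SE 0.40, limma adjusted p = 0.000206), or 96.5% of the distance to aorta. ASMM10P015119 stood at 4.38 in aorta, 4.19 and 4.27 with Myocd, -3.45 and -4.02 with empty virus and -2.59 in liver. It too came close to the aorta level, with a change of 7.96 (SE 0.23, limma adjusted p = 5.32e-05), or 98.1% of the distance. The largest called falls among probes measured in both groups were smaller. ASMM10P052089 stood at 6.44 in aorta, -3.69 and -3.96 with Myocd and -1.82 and -1.74 with empty virus. Its change was -2.04 (SE 0.20, limma adjusted p = 0.00225), away from aorta. ASMM10P045625 stood at 3.98 in aorta, -4.001 and -4.41 with Myocd and -2.20 and -2.25 with empty virus. It changed by -1.98 with Myocd (SE 0.24, limma adjusted p = 0.00469) and by -1.31 in the knockout (SE 0.24, limma adjusted p = 0.0145), so it was further from aorta in both. With normexp background correction the Myocd changes of ASMM10P052089 and ASMM10P045625 were -0.98 and -0.81.

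**Figure D2:**
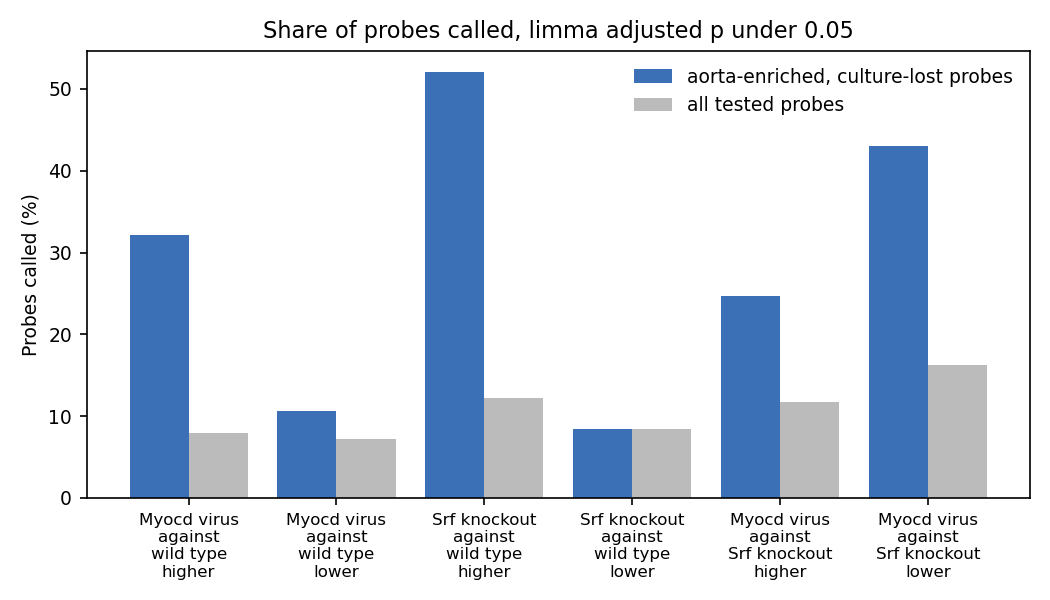
Percent of probes called in each direction (limma, adjusted p under 0.05), for the 584 aorta-enriched, culture-lost probes (blue) and for all 44081 tested probes (grey). Higher calls reached 52.1% of the 584 in the knockout and 32.2% with Myocd, against 12.2% and 7.99% of all tested probes.

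The difference between Myocd and knockout means uses none of the arrays whose values entered the rule, although the wild-type arrays enter its error and the filter on dim probes. It is still not free of the choice. The Myocd and knockout arrays counted towards the detection limit of the deposited table and towards that filter, which 50 probes passed through the knockout only and 14 through Myocd only. By this contrast 144 of the 584 were called higher with Myocd (24.7%), where 11.7% of all tested probes were called higher, and 251 were called lower with Myocd (43.0%), where 16.2% of all tested probes were called lower (limma, adjusted p under 0.05). The median difference was -0.46 on the log2 scale, with quartiles of -1.85 and 0.77, against -0.08 over all tested probes. The Myocd and knockout arrays lay on different slides. Differences of 4-fold or more were measured for 76 probes higher with Myocd and 135 lower, next to 1195 and 1402 of all 44081 tested probes. Without 1 of the 4 arrays in this contrast, the median difference ran from -0.48 to -0.44, and fewer of the 584 were called in either direction. With the wild-type arrays left out of the fit altogether, 151 were called higher with Myocd and 269 lower.

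The 584 thus held both probes higher with Myocd than in the knockout and probes lower with Myocd. The 144 probes called higher with Myocd than in the knockout had a median change of 2.28 with Myocd and -0.11 in the knockout, both against wild-type cells. Of these 144, 123 were called higher with Myocd than with empty virus and 43 were called lower in the knockout than in wild-type cells. In the knockout 29 of the 144 were called higher than in wild-type cells. The 251 probes called lower with Myocd than in the knockout had a median change of -0.17 with Myocd and 2.25 in the knockout. Of these 251, 222 were called higher in the knockout than in wild-type cells and 54 were called lower with Myocd than with empty virus. With Myocd 21 of the 251 were called higher than with empty virus. The direct contrast fixes part of this pattern, and both changes share the wild-type arrays, so these values are a description. ASMM10P005241 had the largest difference, with Myocd levels of 7.91 and 7.89 against knockout levels of -1.82 and -2.24. Its difference was 9.93 (SE 0.19, limma adjusted p = 1.1e-05), and its Myocd level lay 88.4% of the way from wild-type cells to aorta. For ASMM10P043651 the difference was 9.01 (SE 0.40, limma adjusted p = 5.78e-05), with knockout levels of -5.23 and -4.33, of which 1 was well above background. ASMM10P052089, which fell with Myocd, rose in the knockout, where it stood at 3.04 and 2.62, with a change of 4.61 against wild-type cells (SE 0.20, limma adjusted p = 0.000128). At the other end, ASMM10P042400 stood at -5.02 and -4.67 with Myocd, of which 1 was well above background, against 2.84 and 2.75 in the knockout. Its difference was -7.63 (SE 0.17, limma adjusted p = 1.42e-05). ASMM10P024102 stood at -1.67 and -2.45 with Myocd against 5.20 and 5.34 in the knockout, a difference of -7.33 (SE 0.26, limma adjusted p = 3.66e-05).

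**Figure D3:**
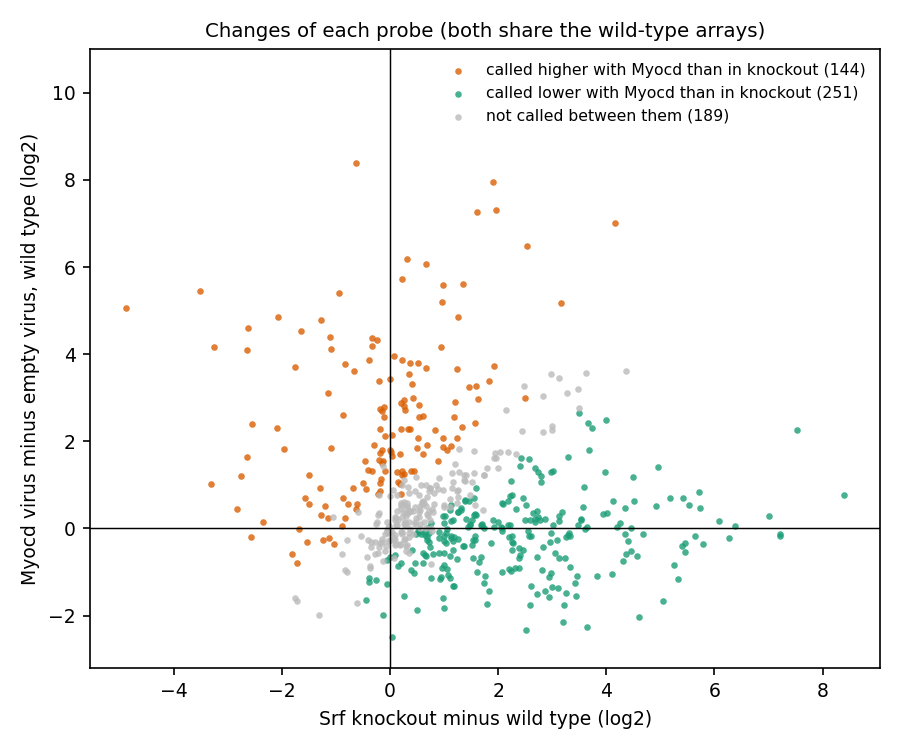
Log2 change of each of the 584 probes in Srf knockout cells (horizontal) and with Myocd virus (vertical), both against wild-type cells with empty virus. The 144 probes called higher with Myocd than in the knockout (orange) spread upwards, and the 251 called lower (green) spread to the right; the remaining 189 (grey) were not called. Both axes share the wild-type arrays.

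**Figure D4:**
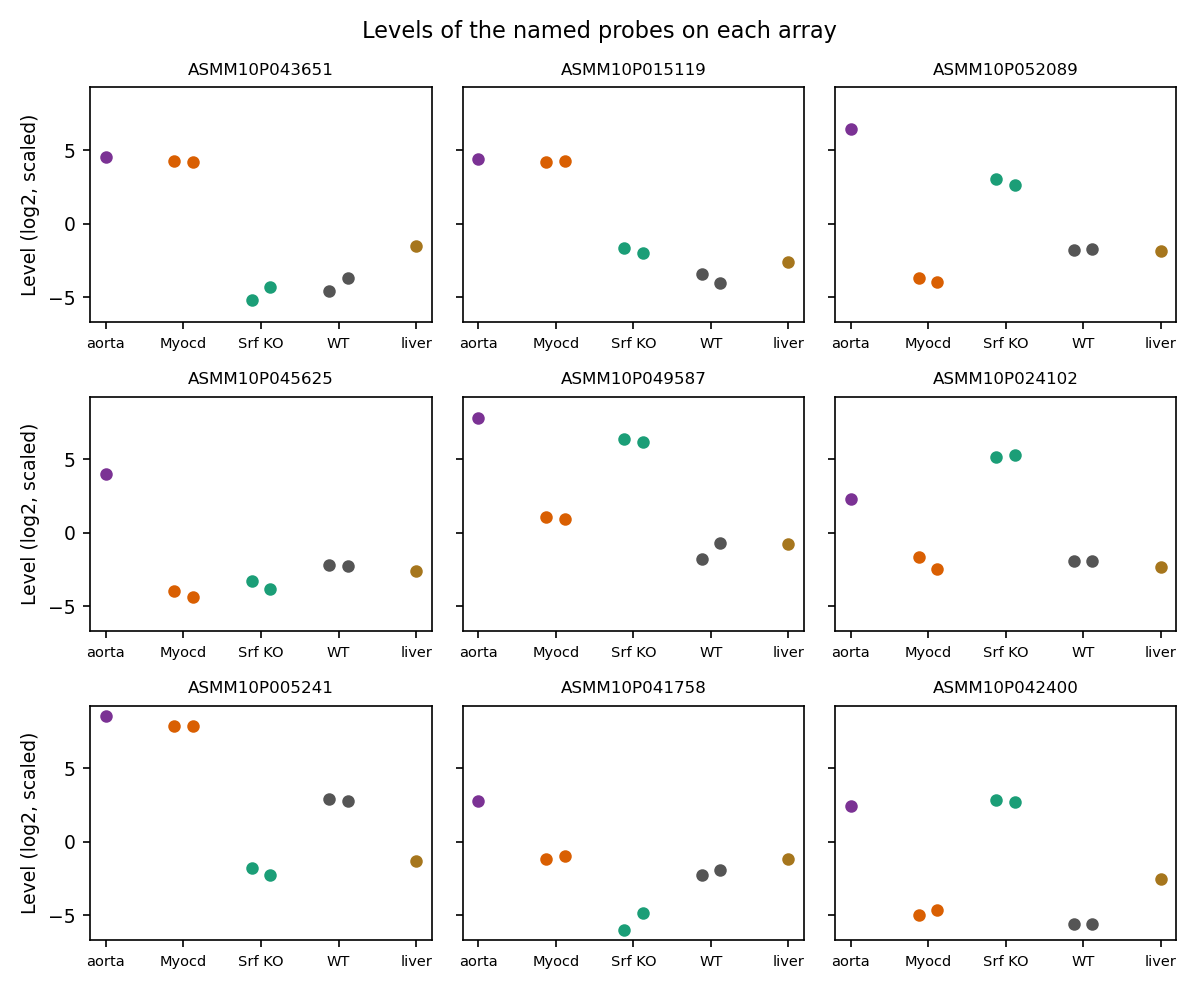
Levels on each array of the 9 probes named as the 2 largest called rises or falls of a contrast among probes measured in both groups, as log2 intensity minus the array's 75th percentile. Each point is 1 array. The Myocd points of ASMM10P043651 and ASMM10P015119 lie at the aorta level, as do the knockout points of ASMM10P042400, while those of ASMM10P024102 lie above it.

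How far each probe moved was expressed as a percent of its own distance from the wild-type mean to aorta, which could be computed for 582 probes. With Myocd the median was 6.65%, with quartiles of -5.57% and 27.2%. In the knockout it was 18.6%, with quartiles of 2.42% and 43.1%. With Myocd, 213 probes moved away from aorta, 214 covered less than 25% of the distance, 83 covered 25% to 50%, 54 covered 50% to 100%, and 18 reached or passed aorta. In the knockout these numbers were 124, 212, 127, 107 and 12. Over all tested probes the median was 11.5% with Myocd and 25.1% in the knockout. At least 50% was covered by 12.3% of the 584 with Myocd and 20.4% in the knockout, next to 23.6% and 30.2% of all tested probes. Of all tested probes 54.8% lay less than 1 log2 unit from aorta in wild-type cells, where a small change makes a large percent. Their percentages therefore cannot be set against those of the 584. Closer in distance were the 1144 probes past the same limit for loss in culture but less than 3 above liver in aorta. Their median was 3.31% with Myocd and 20.0% in the knockout, and 5.33% and 18.3% of them covered at least 50%. The difference between these sets was not tested. The typical probe of the 584 stayed far from aorta both with Myocd and in the knockout. The median distance that remained to aorta was 4.29 log2 units with Myocd, 3.81 in the knockout and 4.70 in wild-type cells. Within 1 log2 unit of the aorta level were 36 probes with Myocd, 47 in the knockout and 0 in wild-type cells. No test was made on these percentages, since aorta is 1 array and its distance from wild-type cells chose the probes. The median changes were also smaller with normexp background correction, at 0.18 with Myocd and 0.43 in the knockout, and so were the median percentages, at 4.71% with Myocd and 10.999% in the knockout, and in the knockout 11.996% when the rule was applied to all scaled intensities.

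**Figure D5:**
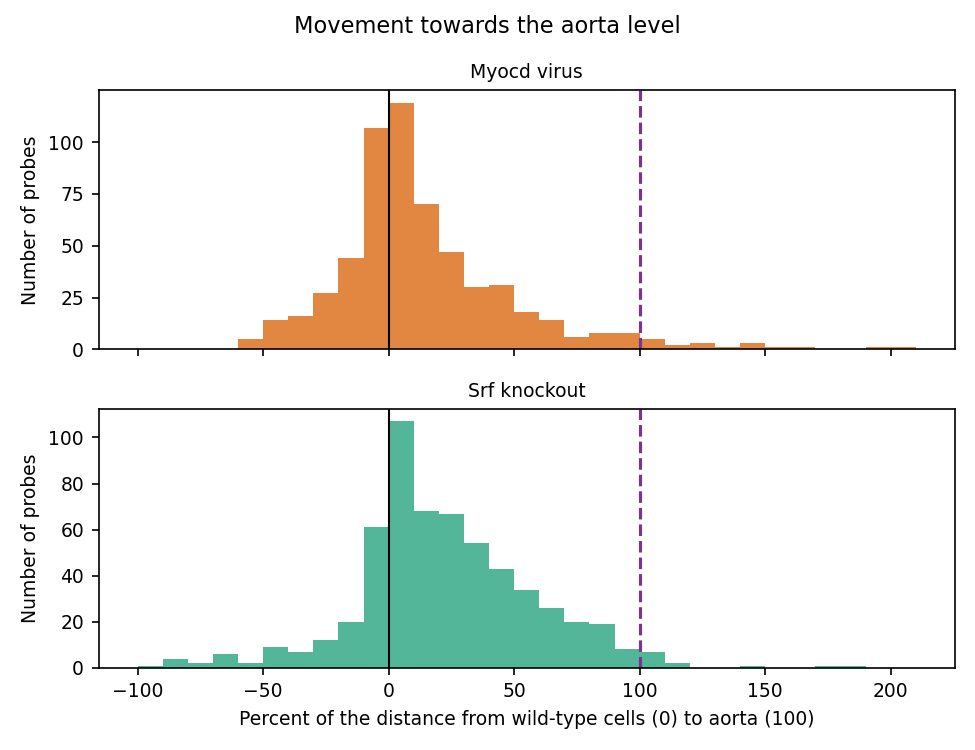
Number of probes by the percent of the distance from wild-type cells (0, solid line) to aorta (100, dashed line) covered with Myocd virus (upper) and in Srf knockout cells (lower), in steps of 10 percent. The Myocd distribution centres near 0, with a median of 6.65%, and the knockout distribution lies further right, with a median of 18.6%.

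The largest overshoots were found on probes with neighbouring identifiers, named here after their values were seen. ASMM10P021555 and ASMM10P021554 covered 201% and 190% of the distance to aorta with Myocd. ASMM10P024100 and ASMM10P024102, whose numbers are not consecutive, covered 187% and 171% in the knockout. Among the 584, 61 of the 579 probes of the ASMM10P series lay in 33 pairs with consecutive numbers. Across these pairs, Pearson's r between the 2 probes was 0.68 for the change with Myocd and 0.44 for the change in the knockout, against 0.13 and 0.15 across the 31302 consecutive pairs in the table. These values run across probes of the same arrays, are a description and carry no test. Where neighbouring probes share a transcript they are not independent, and the files do not say which do.

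The probes differed by how dim they were in wild-type cells. On both wild-type arrays 487 were well above background, and of these 151 were called higher with Myocd and 241 in the knockout, with median changes of 0.23 and 0.69. These calls are 31.0% and 49.5% of the 487, next to 7.13% and 10.8% of all tested probes of that class. The 53 probes seen on 1 wild-type array had 14 and 27 such calls, or 29.2% and 56.2% of the 48 that were tested, next to 7.71% and 13.3% of all tested probes of that class. For the 44 probes dim on both wild-type arrays the calls were 23 and 36, and their median changes of 1.75 and 2.91 start from levels below background. These calls are 52.3% and 81.8% of the 44, next to 32.4% and 50.3% of all tested probes dim on both wild-type arrays. All 44 had to be well above background on other arrays to enter the deposited table. For called rises from a dim wild-type group with a bound above 1, the bounds ran from at least 1.11-fold to at least 46.6-fold with Myocd (21 probes), and from at least 1.15-fold to at least 221-fold in the knockout (34 probes). The highest Myocd bound was that of ASMM10P021554, at 0.60 and 0.49 with Myocd against -7.01 and -6.50 with empty virus (limma adjusted p = 8.21e-05).

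The shares called were also set out by the size of the loss in culture. Of the 196 probes less than 4 above wild-type cells in the deposited table, 63 were called higher with Myocd (32.1%) and 95 in the knockout (48.5%). Of the 133 probes from 4 to 5 above, 39 (29.3%) and 70 (52.6%) were called higher. Of the 255 probes 5 or more above, 86 (33.7%) and 139 (54.5%) were called higher. The median percent of the distance covered in these 3 classes was 7.40%, 4.81% and 6.40% with Myocd and 20.4%, 20.9% and 16.3% in the knockout.

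By identifier, 579 of the 584 probes belonged to the ASMM10P series, 1 to ASMM10UP, 3 to mouselincRNA and 1 to humanlincRNA, out of 41881, 365, 277 and 424 probes in the table. The prefixes are the maker's, and what they stand for is not given in the files. The 5 probes outside ASMM10P were named after their values were seen. Against wild-type cells, humanlincRNA0717-_P1 was 1.31 higher in the knockout (SE 0.14, limma adjusted p = 0.00241) and ASMM10UP748 was 1.12 higher (SE 0.16, limma adjusted p = 0.00624). The probe mouselincRNA1397-_P1 was 1.43 higher (SE 0.33, limma adjusted p = 0.0309), and mouselincRNA1235-_P1 stood at 0.65 (SE 0.23, limma adjusted p = 0.0966). The probe mouselincRNA0735+_P1 moved in opposite directions, with a change of 0.99 in the knockout (SE 0.18, limma adjusted p = 0.0147) and, being dim on both Myocd arrays, a level at least 1.36-fold lower with Myocd than with empty virus (limma adjusted p = 0.00380). The other 4 were not called with Myocd, at 0.47, -0.18, 0.03 and -0.61.

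Probes past the same limit for loss in culture but less than 3 above liver in aorta numbered 1144. Their median distance from wild-type cells to aorta was 4.01 log2 units, next to 4.70 for the 584. Of these, 189 were called higher with Myocd (16.5%) and 542 in the knockout (47.4%), next to 32.2% and 52.1% of the 584. In the direct contrast 104 of the 1144 were called higher with Myocd than in the knockout (9.09%) and 509 lower (44.5%), next to 24.7% and 43.0% of the 584. The 3416 probes that were 3 or more above liver but less than 1 above wild-type cells had 318 higher calls with Myocd (9.31%) and 203 in the knockout (5.94%). Their lower calls were more, at 482 with Myocd (14.1%) and 784 in the knockout (23.0%). Over all tested probes 7.99% were called higher and 7.20% lower with Myocd, and 12.2% higher and 8.40% lower in the knockout. These shares stand side by side as a description, since the sets were chosen on the wild-type arrays that also enter the calls, and the difference between sets was not tested.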

How the data were processed

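The deposited scanner output of 8 Agilent one-colour arrays holds a processed intensity for each spot, made with Feature Extraction 11.0.1.1 per the file headers and the submitters' processing notes. The deposited series table gives log2 intensities of 42995 probes, with medians of 7.16 to 7.27 and the same maximum in each column. Each column rises with its array's scanner values (r across probes, 0.997 to 1.00). How it was normalized is not stated in those notes. This table chose the 584 probes and was an alternative in the tests.

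Here, outlier spots were left out, spots of 1 probe averaged on the log2 scale and each array's 75th percentile subtracted. No spot was saturated. A probe was tested if well above background on every usable array of at least 1 cultured group. Means of the 6 cultured arrays were compared with limma 3.58.1 in R 4.3.3 (lmFit, eBayes, two-sided, 3 residual degrees of freedom), adjusted by Benjamini-Hochberg over all 44081 tested probes. SE is limma's. Where a probe was dim on all arrays of a group, "at least" folds replace each dim value by the array's lowest value well above background, unless the probe itself read higher. The code was tested on simulated data. Precision is limited by 2 arrays per cultured group, and single tissue arrays have no error.

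Probes named were the 2 largest called rises and falls per contrast among those measured in both groups, and those nearest each limit of the choice; others are said to be named after their values were seen. Members, lists and rules were chosen with earlier results of these data known. The gene lists and markers that had been listed could not be applied, since the files pair no gene with the 584 probes. No sequence of these probes was used here. Alternatives were quantile normalization, normexp on the median spot signal (the planned mean signal is no column of these files), the deposited log2 values, other filters, fits and limits, and leaving out each cultured array.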

Additional observations from a re-analysis of the deposited data

How the results depend on the processing

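Of the 207 recomputed counts and medians, 53 moved by over 1.5 times (counts) or by more than the SD over array pairs (medians). The medians all kept their direction, whereas a count has no direction to keep. All 176 refits of the named probes kept direction and call. Limits of 2 gave 1295 probes and limits of 4 gave 297. With limits of 2, higher and lower calls were 358 and 134 with Myocd, 618 and 93 in the knockout, and 265 and 536 between Myocd and knockout; with limits of 4 they were 107 and 27, 163 and 27, and 77 and 125. At least 50% of the distance to aorta was then covered by 164 and 39 probes with Myocd and by 269 and 60 in the knockout, next to 72 and 119 of the 584. The median change with Myocd was 0.21 and 0.40 under these limits, 0.25 with quantile normalization and 0.18 with normexp. In the knockout it was 0.72 and 1.00, 0.73 and 0.43, and it was 0.74 with the deposited values, 0.65 with the rule on scaled intensities and 0.82 with members chosen by wild-type replicate 2. The median difference between Myocd and knockout was -0.39 with quantile normalization, -0.19 with normexp, -0.38 with the deposited values and -0.33 with the rule on scaled intensities. The median percent of the distance covered was 4.71% with normexp and 4.28% with the rule on scaled intensities for Myocd. For the knockout it was 15.1% with quantile normalization, 10.999% with normexp, 15.0% with the deposited values, 20.8% with limits of 2, 11.996% with the rule on scaled intensities and 16.9% with members chosen by wild-type replicate 2. Lower calls with Myocd were 35 without a filter on dim probes, 38 with only the groups compared and 41 with array weights. Without that filter 1728 of all 60930 probes were called lower with Myocd. The causes were not tested.

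Leaving out each cultured array gave 133 to 187 higher and 23 to 60 lower calls with Myocd, 186 to 299 and 25 to 50 in the knockout, and 115 to 149 and 178 to 267 between them. Medians then ran from 0.26 to 0.35 with Myocd, from 0.87 to 0.93 in the knockout and from -0.48 to -0.44 between them, and the percent covered from 5.57% to 7.41% with Myocd and from 17.5% to 18.7% in the knockout. Probes covering at least 50% numbered 70 to 76 with Myocd and 115 to 128 in the knockout. The titles share replicate numbers, but same-numbered arrays did not deviate together (Pearson's r of replicate differences across probes -0.26, -0.07 and 0.09). With the replicate number as a block, higher and lower calls were 168 and 44 with Myocd and 281 and 45 in the knockout. Between Myocd and knockout they were 135 and 239. Over all 44081 tested probes these calls were 2568 and 1817, 4016 and 2361, and 4232 and 5830. Without the block the calls over all tested probes were 3523 and 3172, 5395 and 3701, and 5177 and 7154. Slide as a block was not run for the Myocd contrasts, since slide and group cannot be told apart. For dim probes the size of a change is not exact, since their levels lie near background.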

Other observations

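The opposite set, 1843 probes of the deposited table that were 3 or more lower in aorta than in wild-type cells with empty virus, held more lower than higher calls in both treated groups. With Myocd 427 were called lower (23.2%) and 135 higher (7.33%), with a median change of -0.45 on the log2 scale. Over all tested probes 7.20% were called lower and 7.99% higher with Myocd. In the knockout 718 were called lower (39.0%) and 122 higher (6.62%), with a median change of -0.76. Over all tested probes 8.40% were called lower and 12.2% higher in the knockout. The median percent of the distance to aorta covered was 11.3% with Myocd and 19.7% in the knockout. Over all tested probes it was 11.5% and 25.1%, but 54.8% of those lay less than 1 log2 unit from aorta in wild-type cells. These probes were chosen on the same aorta and wild-type arrays, so the values are a description.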
